A study of Mus musculus with 960 samples.

Results

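The ErbB receptors and their ligands are described here by the accessible regions around 10 mouse genes, the receptor genes Egfr, Erbb2, Erbb3 and Erbb4 and the ligand genes Areg, Ereg, Btc, Nrg1, Tgfa and Hbegf. All 10 are members of the family, but the set leaves out 5 further ligand genes, which are described below. It was chosen with earlier results of these data known. Every region in a gene or within 20 kb of it on the mouse build mm9 was counted, with genes and start sites from GENCODE release M1. By this rule 60 of 50000 regions, 0.12% of the list, belonged to the set, and no region was counted for more than 1 gene. The 10 genes were 10 of 22342 protein-coding genes.

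The tissue was a primary mammary tumour of an MMTV-PyMT mouse about 3 months old, in which the polyoma middle T oncogene is expressed from a mammary tumour virus promoter that is active mainly in mammary epithelium. The tissue was fixed by perfusion of the mouse and then dissociated. The cells were stained, transposed in bulk with Tn5 and sorted 1 per well (Pi-ATAC). There were 960 wells in all, 8 plates labelled for EpCAM and HIF1α and 2 plates for EpCAM and CD45. All wells share this tumour model, no animal is named, and a tumour without the transgene was not analysed here. Whether the wells labelled for CD45 entered the pool from which the regions were called is not stated in the sources used here, which also differ on whether cells were selected for EpCAM.

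The data are 1 list of 500 bp windows, each centred on a summit of accessibility called by the authors with MACS2 on pooled cells, with a name and no height, read count or q-value. The depth behind a window is therefore unknown, and a gene without a window had no summit among the 50000 kept, which does not show that its chromatin was closed. With 1 pooled list there are no replicates, so the counts below are descriptions with no error and no test, and shares among all genes are given beside them. The list carried windows at the luminal markers: a start site had a window at most 1 kb away at 7 of 7 luminal markers (Epcam, Krt8, Krt18, Krt19, Cdh1, Elf5 and Esrp1), at 0 of 5 basal, 0 of 5 blood cell, 0 of 4 fibroblast and 0 of 4 endothelial markers. The share was 52.2% over all protein-coding genes and 17.9% over those with a CpG-poor start (defined below). Of the markers, 2 luminal and 1 endothelial were CpG-rich and the rest CpG-poor. Lists this small cannot set a count of 0 apart from 17.9%. Counts of windows in or within 20 kb of the gene ran from 7 to 16 for the luminal, 1 to 5 for the basal, 0 to 10 for the blood cell, 0 to 2 for the fibroblast and 0 to 7 for the endothelial markers, and Ptprc, which encodes CD45, had 0. The share of any other cell type in the pool was not tested.

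ErbB receptors are membrane tyrosine kinases that pair with each other when a ligand binds and then signal through the Ras, PI3 kinase and phospholipase C pathways. Ligands are made as membrane-bound precursors and released by proteases, and they act on the same or on neighbouring cells. In the mammary gland the family directs growth of the ducts and milk-producing differentiation, and it is a classical driver of breast cancer.

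The sequences upstream of 4 start sites are printed as examples that pair CpG-rich starts without a window with other starts that had windows. They are the 250 bases before the start on the strand of the gene, read from the mm9 genome, with each CpG in capitals. Areg and Tgfa, which had no window within 1 kb of the start, are CpG-rich by the definition used here (a GC share of at least 0.5 and an observed to expected CpG ratio of at least 0.6 in the 500 bp around a start site). Btc and Erbb3, which had 4 and 3 such windows, are not, with CpG ratios of 0.249 and, just below the cut, 0.573. Over the 10 members, 5 of the 7 with a CpG-rich start and 2 of the 3 others had such a window. Over all genes the shares were 82.7% with a CpG-rich start and 17.9% without, so the 4 printed starts go against the common pattern. The printed runs hold 17 CpGs for Areg (chr5:91568391-91568640, plus strand), 34 for Tgfa (chr6:86145170-86145419, plus strand), 5 for Btc (chr5:91831940-91832189, minus strand) and 13 for Erbb3 (chr10:128026709-128026958, minus strand).
Areg: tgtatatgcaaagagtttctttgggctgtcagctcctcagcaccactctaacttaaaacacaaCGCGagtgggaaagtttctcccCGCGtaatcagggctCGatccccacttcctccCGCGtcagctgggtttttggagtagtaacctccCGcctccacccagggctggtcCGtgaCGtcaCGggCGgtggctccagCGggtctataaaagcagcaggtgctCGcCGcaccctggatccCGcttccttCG
Tgfa: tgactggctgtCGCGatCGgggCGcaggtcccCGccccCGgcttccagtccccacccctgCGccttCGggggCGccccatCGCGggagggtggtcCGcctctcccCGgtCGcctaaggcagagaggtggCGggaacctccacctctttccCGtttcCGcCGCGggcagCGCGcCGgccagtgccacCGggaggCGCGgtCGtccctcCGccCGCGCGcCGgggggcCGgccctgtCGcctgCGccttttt
Btc: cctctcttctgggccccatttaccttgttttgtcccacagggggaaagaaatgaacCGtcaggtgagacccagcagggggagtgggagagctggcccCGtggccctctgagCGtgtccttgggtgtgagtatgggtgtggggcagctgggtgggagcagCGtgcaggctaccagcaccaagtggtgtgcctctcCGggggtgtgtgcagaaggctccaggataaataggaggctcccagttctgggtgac
Erbb3: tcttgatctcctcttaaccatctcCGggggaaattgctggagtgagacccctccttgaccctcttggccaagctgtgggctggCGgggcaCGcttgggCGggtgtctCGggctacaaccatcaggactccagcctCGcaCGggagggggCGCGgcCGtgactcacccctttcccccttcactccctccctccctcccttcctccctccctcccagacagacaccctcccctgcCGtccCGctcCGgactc

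Introns held many of the family's windows, and the middle 200 bases of 5 of them are printed as examples, 1 from each of 5 genes with a called peak of several kept windows, chosen after their motif matches were seen. They are on the strand of the gene with motif matches in capitals. In Egfr intron 1 (chr11:16710139-16710338, plus strand) the capitals mark a STAT, a GATA and an AP-2 match. In Erbb2 intron 1 (chr11:98280245-98280444, plus strand) they mark an AP-1 and a Grainyhead match, and in Erbb3 intron 3 (chr10:128021584-128021783, minus strand) an AP-1 match. In Erbb4 intron 1 (chr1:69152828-69153027, minus strand) they mark an ETS, a HIF core and a GATA match. In Tgfa intron 2 (chr6:86184047-86184246, plus strand) they mark a FOX match that overlaps a SOX match, and a pair of CACGTG words, each of which holds the HIF core on both strands.
Egfr intron 1: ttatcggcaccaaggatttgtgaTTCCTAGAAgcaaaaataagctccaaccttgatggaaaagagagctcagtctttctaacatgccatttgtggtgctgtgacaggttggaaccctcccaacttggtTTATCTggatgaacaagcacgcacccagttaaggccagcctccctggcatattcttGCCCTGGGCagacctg
Erbb2 intron 1: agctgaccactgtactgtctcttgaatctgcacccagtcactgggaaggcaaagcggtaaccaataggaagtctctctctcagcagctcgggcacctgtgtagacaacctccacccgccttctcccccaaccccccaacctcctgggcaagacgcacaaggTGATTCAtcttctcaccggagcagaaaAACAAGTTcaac
Erbb3 intron 3: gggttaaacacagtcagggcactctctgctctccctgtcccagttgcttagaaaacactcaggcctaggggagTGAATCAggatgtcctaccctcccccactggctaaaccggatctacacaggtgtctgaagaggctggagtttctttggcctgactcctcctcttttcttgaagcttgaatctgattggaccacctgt
Erbb4 intron 1: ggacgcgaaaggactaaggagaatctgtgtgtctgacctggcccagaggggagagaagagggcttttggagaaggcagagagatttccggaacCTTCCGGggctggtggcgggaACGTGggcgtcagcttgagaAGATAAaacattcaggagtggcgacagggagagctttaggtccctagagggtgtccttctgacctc
Tgfa intron 2: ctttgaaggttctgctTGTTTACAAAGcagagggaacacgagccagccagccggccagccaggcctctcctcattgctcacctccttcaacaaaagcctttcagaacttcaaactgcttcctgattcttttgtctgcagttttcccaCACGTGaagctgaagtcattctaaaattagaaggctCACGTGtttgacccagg

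Windows lay at the start sites of 7 of the 10 genes. A start-site window, meaning one at most 1 kb from a start of the gene, was present at Egfr, Erbb2, Erbb3, Erbb4, Btc, Nrg1 and Hbegf and not at Areg, Ereg or Tgfa, beside 52.2% of all protein-coding genes (11664 of 22342) with such a window. Of the 7 genes with a CpG-rich start 5 had one, beside 82.7% of all CpG-rich genes. Of the 3 CpG-poor genes 2 had one (Erbb3 and Btc, but not Ereg), beside 17.9% of all CpG-poor genes. The CpG ratios of Erbb3 (0.573) and Ereg (0.556) lay just below the cut of 0.6, and that of Btc was 0.249. Any window in or within 20 kb was found for 9 of the 10, beside 72.4% of all genes. The genes with 4 or more start-site windows were 3 of the 10 (Egfr, Erbb4 and Btc), beside 3.51% of all genes. The 4 receptors held 44 windows, 12 of them at a start, and the 6 ligands of the set held 16, 7 of them at a start. Counted by nearest start site in place of distance, the receptors held 28 windows and these ligands 17, a ratio of 1.65 in place of 2.75. By that count Tgfa, with 8, was above Egfr, with 7, and Erbb2 and Erbb3, with 5 each. Outside the set, the 5 further ligand genes described below had 0 to 17 windows in or within 20 kb, with 17 at Nrg2.

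By the position of the summit, 36 of the 60 windows lay in the member gene (33 in introns and 3 in exons), 13 upstream and 11 downstream. Away from the start of every gene lay 35 of the 60, beside 31268 of all 50000 windows. The median over the 10 genes was 5 windows, beside 2 over all genes, and 4.84 windows per 100 kb of gene with flanks, beside 2.92. The 60 windows came from 37 called peaks, and 34 of them (56.7%) came from a call that kept several windows, beside 39.8% of all windows. The start nearest to the summit was that of the member for 41 windows, and 6 lay within 1 kb of the start of another gene.

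**Figure D1:**
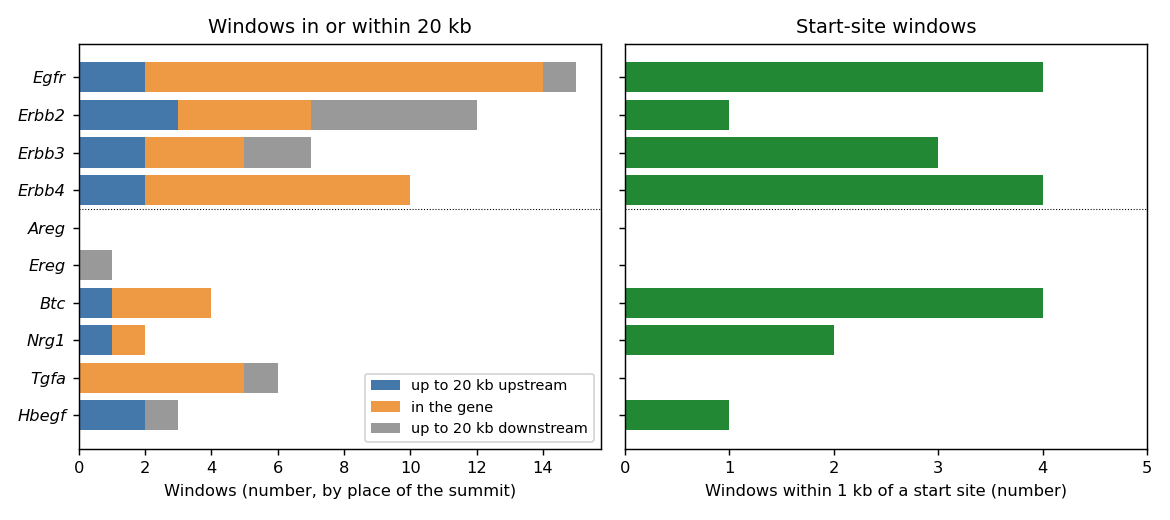
Number of windows at each of the 10 genes, in or within 20 kb of the gene (left, coloured by the place of the summit) and within 1 kb of a start site (right), with receptors above the dotted line and ligands below it. The receptors have 7 to 15 windows each and the ligands 0 to 6, and Areg, Ereg and Tgfa have none at the start site.

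Egfr, the receptor for EGF, TGFα and amphiregulin, had 15 windows, more than 98.4% of all genes. The gene spans chr11:16652206-16818161 on the plus strand. Its start held 4 windows of 1 called peak of 1.874 kb, with summits 0.562 kb upstream and 0.077, 0.338 and 0.812 kb downstream of the outermost start site. Intron 1 held a further 8 windows beyond 10 kb, at 17.3, 17.8, 39.1, 48.4, 57.4, 57.6, 58.03 and 78.4 kb into the gene, and the windows at 57.4 to 58.03 kb belonged to 1 called peak of 1.183 kb, from which the last window is printed above. Intron 19 held 1 window, and single windows lay 10.9 kb upstream of the start and downstream of the gene. No window lay within 1 kb of the inner start site at position 16778153, whose surroundings had a CpG ratio of 0.256. The nearest annotated start to 7 of the intron 1 windows was that of Gm17664, a predicted gene inside Egfr that itself had no start-site window. Among 2510 genes of 0.5 to 2 times the length of Egfr the median was 4 windows.

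Erbb2, the receptor that has no known ligand of its own and serves as a partner for the others, had 12 windows, the highest density of the 10 genes at 18.4 windows per 100 kb of gene with flanks. That density was above 96.7% of all genes. The gene spans chr11:98273784-98299030 on the plus strand. A single window covered its start, with the summit 0.011 kb upstream. Intron 1 held the 4 windows with a summit in the gene, at 1.47, 6.11, 6.56 and 6.79 kb, and the last 18.5 kb before the end of the gene held no summit. The other 7 windows lay in the flanks, where genes are close together: 1 at the start of Pgap3, 1 in the body of Pgap3, 1 at the start of 1810046J19Rik, 3 at the start of Grb7 and 1 beyond Grb7. Grb7 encodes an adaptor that binds ErbB2. The start nearest to the summit was that of Erbb2 itself for 5 of the 12 windows.

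Erbb3, a receptor for neuregulins with little kinase activity of its own, had 7 windows, or 11.3 per 100 kb. The gene spans chr10:128004579-128026708 on the minus strand. Its start lay among 3 windows of 1 called peak of 1.894 kb, with summits 0.776 and 0.17 kb upstream and 0.618 kb into the gene. In the gene, 1 called peak gave a window in intron 3 and a window in intron 4, 5.03 and 5.68 kb from the start. The remaining 2 windows lay 40.5 and 40.9 kb from the start, beyond the end of the gene, and 1 of them was within 1 kb of the start of Zc3h10, a neighbour.

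Erbb4, a receptor for neuregulins and for betacellulin, had 10 windows, of which 8 belonged to a single called peak across its start. The gene spans chr1:68078760-69154633 on the minus strand, 1076 kb. The 8 windows of that peak covered 3.665 kb, with summits from 0.458 kb upstream to 2.71 kb into the gene. Only 0.0286% of the 38400 called peaks of the list, 11 in all, kept 8 or more windows, and 1.8% kept 4 or more. The other 2 windows were single ones in intron 1 and intron 2, 231.6 and 401.7 kb from the start, and the longest stretch of the gene without a summit was 674.2 kb. Density was 0.896 windows per 100 kb, above that of 30.0% of all genes. Genes of 0.5 to 2 times its length had a median of 3 windows, and 46.4% of them had a start-site window.

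**Figure D2:**
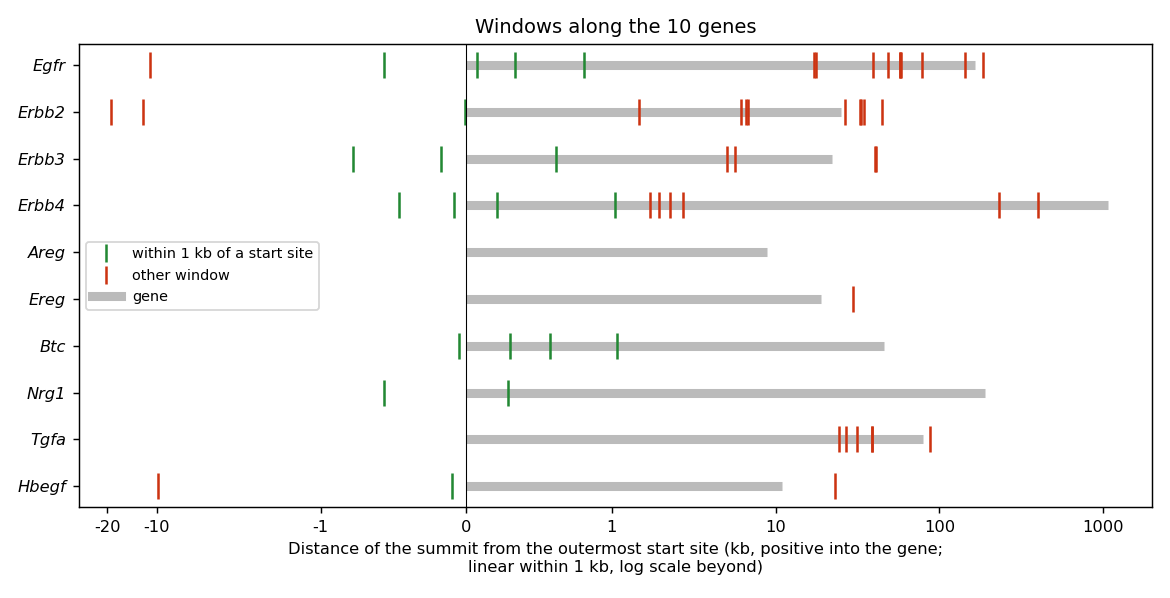
Distance of each summit from the outermost start site in kb (positive into the gene, linear within 1 kb and on a log scale beyond), with the gene as a grey bar, start-site windows in green and other windows in red. The Erbb4 windows crowd at the start apart from 2 at 231.6 and 401.7 kb, the Tgfa windows begin 24.3 kb into the gene, and Areg has none.

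Btc, which encodes betacellulin, a ligand of EGFR and ErbB4, had 4 windows, all of them at its start. The gene spans chr5:91786287-91831939 on the minus strand. They came from 1 called peak of 1.623 kb, with summits 0.051 kb upstream and 0.302, 0.575 and 1.07 kb into the gene, so the Btc windows lay in intron 1 or just before the gene. The remaining 44.6 kb of the gene had no summit. The start had a GC content of 62.2% with a CpG ratio of 0.249, the lowest ratio of the outermost starts of the 10 genes.

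Nrg1, which encodes neuregulin 1, a ligand of ErbB3 and ErbB4, had 2 windows, both at the outermost start of its gene model. The model spans chr8:32928500-33119581 on the minus strand, and the summits lay 0.564 kb upstream and 0.285 kb into the gene. The 2 inner start sites, with CpG ratios of 0.356 and 0.4, had none, and the rest of the gene, 190.8 kb, held no summit. The median over 2162 genes of 0.5 to 2 times its length was 4 windows. The next window upstream lay 275.7 kb before the start, and 3 windows lay between 20 kb and 1 Mb upstream of this model. Transcripts of Nrg1 that begin outside the GENCODE M1 model were not counted.

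Hbegf, which encodes heparin-binding EGF-like growth factor, a ligand of EGFR and ErbB4, had 3 windows. The gene lies on chromosome 18 from 36664583 to 36675459 on the minus strand. A single window covered the start, with the summit 0.099 kb upstream, 1 lay 9.85 kb upstream and 1 lay 23.03 kb from the start beyond the end of the gene. No summit lay inside the gene.

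Tgfa, which encodes transforming growth factor α, a ligand of EGFR, had 6 windows and none at its start. The gene spans chr6:86145420-86225151 on the plus strand, and its start had the highest CpG ratio of the 10 outermost starts, 0.947, at a GC content of 72.4%. The windows lay in intron 1 at 24.3, 27.1 and 31.6 kb, in intron 2 at 38.7 and 38.9 kb and beyond the end of the gene at 87.9 kb from the start. The intron 2 windows overlapped and came from 1 called peak of 0.695 kb. Upstream of the start the nearest kept window was 26133 bp away.

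Areg and Ereg, neighbours on chromosome 5 that encode amphiregulin and epiregulin, had the fewest windows. Amphiregulin binds EGFR and is known as a mediator of oestrogen-driven duct growth in the mouse mammary gland, and epiregulin binds EGFR and ErbB4. Areg (chr5:91568641-91577458, plus strand) had 0 windows, and the nearest summit was 35112 bp upstream of its start. Ereg (chr5:91503643-91522675, plus strand) had 1 window, 29886 bp from its start and beyond its end, and this was the same summit that was nearest to Areg. The ligand cluster from Epgn to Btc runs over 375.45 kb and held 7 windows of 4 called peaks, of which 1 lay at the start of Epgn and 4 at the start of Btc.

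**Figure D3:**
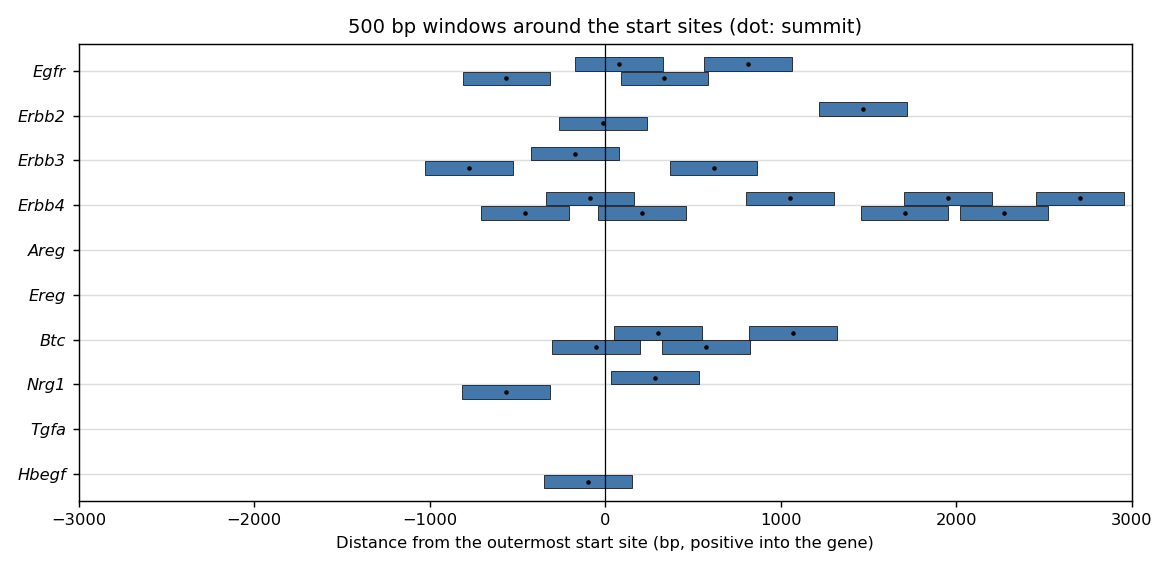
The 500 bp windows (boxes, dot at the summit, drawn at 2 heights so that overlaps can be seen) by distance in bp from the outermost start site of each gene, positive into the gene. Erbb4 has 8 windows in the range shown, Egfr and Btc 4 each, and Areg, Ereg and Tgfa 0.

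The uniqueness of the sequence was computed because reads that map to several places were not kept, and its part in the counts was not tested. Of all 75-base words in the 2001 bp around the outermost start, 100% were unique in mm9 for Areg and Tgfa and 99.33% for Ereg, against 100% for the other 7 members. In the gene with 20 kb flanks the share was 98.48% for Areg, 99.56% for Tgfa and 89.11% for Ereg, and it was 88.73% for Btc, which had 4 windows. The names of the windows add what was called and not kept, because called peaks are numbered along the genome and the numbers never fell from a window to the next. Only 35.1% of the numbers up to 109284 had a kept window. Around the start of Ereg the kept windows on both sides, 65.7 kb apart, had consecutive numbers, so that no number was missing there. None was missing at 10.3% of the 3079 genes without a start-site window whose stretch was 0.5 to 2 times as long, and their median was 3 missing numbers. At Tgfa 1 number was missing in 50.4 kb, beside a median of 2 over 2774 genes with a stretch of like length, and at Areg 5 were missing in 297.3 kb, beside a median of 5 over 2991 genes. A missing number is a call with no window among the 50000, and its position within the stretch is unknown.

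**Figure D4:**
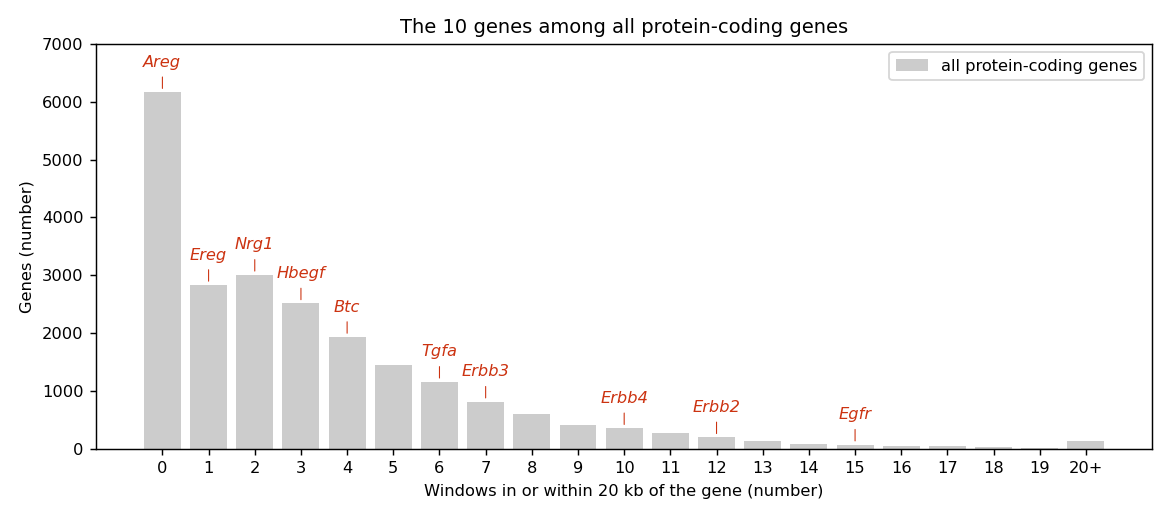
Number of protein-coding genes (grey bars) by their number of windows in or within 20 kb, with the 10 genes marked in red at their own count. The 4 receptors sit at 7, 10, 12 and 15 windows, above the all-gene median of 2, and the ligands sit between 0 and 6.

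Start-site windows were also counted at further genes of the pathway. Of 32 further genes in 4 lists, chosen with earlier results of these data known, 30 had a start-site window, beside 52.2% of all genes. Of the 27 CpG-rich genes among them 26 had one, beside 82.7% of all CpG-rich genes, and of the 5 CpG-poor genes 4 had one, beside 17.9%. Grb7 was 1 of these 4, and its 3 start-site windows are the same windows that were counted for Erbb2 above. Of the other ligands, 3 of 5 had a start-site window. Nrg2 (neuregulin 2) had 3 among 17 windows in all, Egf had 2 among 4 and Epgn (epigen) had 1 among 2. The exceptions were Nrg3, with the nearest summit 1345109 bp from a start, and Nrg4, with the nearest at 74604 bp. All 5 genes for ligand release had one, among them Rhbdf1, an inactive rhomboid that escorts the protease ADAM17, with 3, Rhbdl2, a rhomboid protease, with 3, and Adam17, which sheds several ErbB ligands, with 2. All 9 genes for inhibition and turnover, each of them CpG-rich, had one, and Lrig1, a membrane protein that lowers the level of ErbB receptors, had 5 at its starts and 24 in all. Its relative Lrig3, the ubiquitin ligase gene Cbl and the gene Cblb had 3 start-site windows each. All 13 adaptors and effectors had one. There were 8 at Pik3r1 (a regulatory subunit of PI3 kinase), 5 at Erbb2ip (which encodes a scaffold that binds ErbB2) and 4 each at Shc1 (an adaptor) and Gab1. In all, Gab1 had 29 windows.

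Set beside genes of FGF receptors and of other receptor tyrosine kinases, the ErbB receptors had start-site windows at 4 of 4 genes. The FGF receptors had them at 4 of 5 genes and the others at 20 of 39. The share was 52.2% of all genes, 82.7% of all CpG-rich genes and 17.9% of all CpG-poor genes. CpG-rich were 3 of the 4, 5 of the 5 and 26 of the 39, and of these 3, 4 and 16 had a start-site window. The median number of windows in or within 20 kb was 11 for the ErbB receptors, against 12 for the FGF receptors and 4 for the others, beside 2 over all genes. Per 100 kb of gene with flanks the medians were 9.27, 5.35 and 3.49, beside 2.92 over all genes. The FGF receptor values include Fgfr2, whose gene model spans 3009 kb and holds the most windows of that list. They also include Fgfrl1, a receptor without a tyrosine kinase domain, with 4 start-site windows and 22 windows in all. These lists are small, and no difference between them was tested.

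The letters of the windows were searched on both strands for 15 motifs, and the members' shares lay on both sides of those of all windows, 7 of them higher. The AP-1 letters TGANTCA, bound by Fos and Jun proteins, were in 12 of 60 windows (20.0%), against 14.8% of all 50000. The GATA letters AGATAA were in 20.0%, against 13.6%, and the TEAD letters CATTCC in 33.3%, against 24.7%. The AP-2 letters GCCNNNGGC were in 15.0%, against 29.2%, and the HIF core ACGTG, the centre of the hypoxia response element, in 23.3%, against 29.4%. In the central 200 bp of the windows the HIF core was in 13.3%, against 13.9%, and AP-2 in 10.0%, against 15.6%. With 60 windows, many of them overlapping, such gaps rest on few matches and were not tested.

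**Figure D5:**
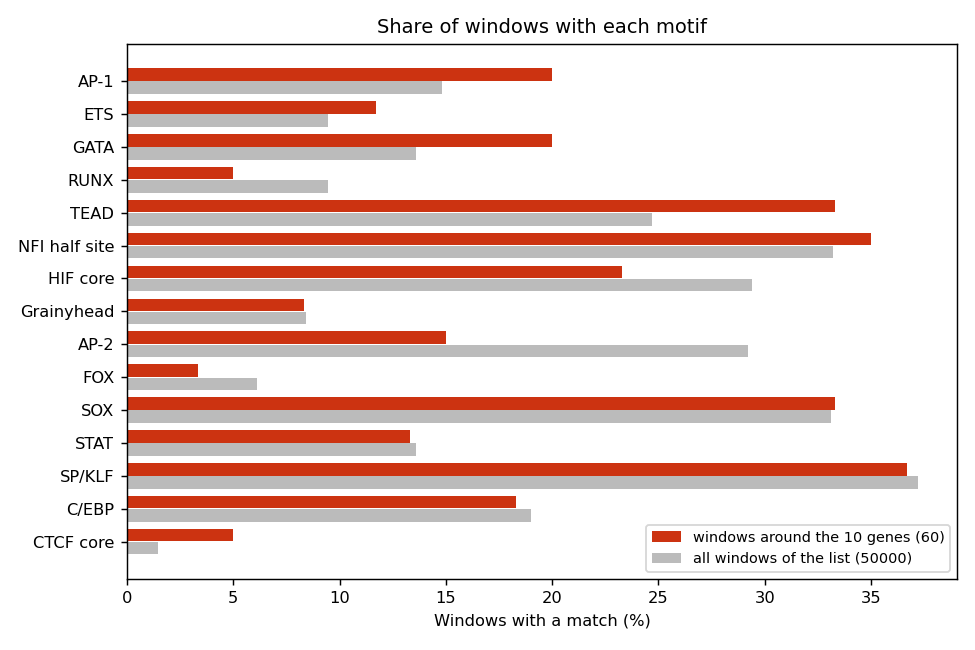
Share of windows with at least 1 match to each of 15 motifs in the 60 windows around the 10 genes (red) and in all 50000 windows of the list (grey), in %. AP-1 stands at 20.0% and 14.8%, AP-2 at 15.0% and 29.2% and SP/KLF at 36.7% and 37.2%.

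The shares differed by place. In the 19 start-site windows the SP/KLF letters GGGCGG were in 63.2%, against 69.2% of all start-site windows, and AP-1 was in 5.26%, against 8.21%. In the 35 windows away from every start, which leave out 6 at the starts of other genes, AP-1 was in 28.6%, against 18.8% of all such windows, GATA in 25.7%, against 16.6%, and the HIF core in 25.7%, against 25.3%. The RUNX letters AACCACA were in 5.0% of the members' windows, against 9.44% of all windows. They were in 0 of the 35 away from starts, against 11.6%, and in 3 of the 19 start-site windows (15.8%), against 5.77%. The matches lay in 3 windows, all of them start-site windows of Egfr, at 2 distinct places because overlapping windows shared a match.

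By gene, AP-1 was in 5 of the 15 Egfr windows, all in intron 1. It was in 4 of the 12 Erbb2 windows at 3 places, because 2 overlapping windows share a match, and 1 of the 4 windows lies at the start of Grb7. TEAD was in 7 of the 12 Erbb2 windows, 3 of them at the start of Grb7, and the same overlapping pair shares a TEAD match too. The HIF core was in 4 of the 6 Tgfa windows, 2 of which overlap and share the matches printed above. The SOX letters ACAAAG were in 5 of the 6 Tgfa windows, and over the family in 33.3%, against 33.1% of all windows. These counts per gene are too small to set against the shares of all windows. The single Ereg window held an ETS match (CCGGAAG) centred 12 bp from its summit and a CTCF core match (CACTAGNGG) centred 59 bp from it. The CTCF core was in 3 of the 60 windows (5.0%), against 1.48% of all windows. A match is a stretch of letters and not a bound site.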

How the data were processed

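The authors aligned 75 bp paired reads of single wells to mm9 with Bowtie2 (version 2.1.0), removed duplicates with Picard (version 1.79), called summits on aggregated cells with MACS2 (its version is not given in the sources used here), widened them to 500 bp windows and kept the 50000 with the lowest q-values. The submitters' processing notes name hg19 as well. The deposited file holds positions and names of these windows, with no count, score or signal, so no count test was possible and precision is not known.

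Windows were read with pandas 2.3.3 and numpy 2.4.6 in Python 3.11.15 (scipy 1.17.1 for intervals, matplotlib 3.10.9 for figures). Genes were protein-coding genes of GENCODE M1 on chromosomes 1 to 19 and X, with 45993 start sites, and the genome was NCBIM37, which is mm9. No window ran past a chromosome end. A window was near a start when any base lay within 1000 bp of it. Motif letters were matched on both strands, without mismatches. The counting functions were tested on simulated data.

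The genes, lists and motifs were chosen with earlier results of these data known. All 10 genes are named; of each further ErbB pathway list, up to 3 with the most start-site windows and the first 3 without one, together with genes whose start lay near a counted summit. Fgfr2, Fgfrl1, Gm17664, Ptprc and the luminal markers were named outside this rule, with their values seen. So were Cblb and Gab1, which tied with named genes. The wells were not compared, because the list has no values per well. Alternatives were other distances, only outermost starts, only calls with several kept windows, merged windows and the central 200 bp for motifs. Distances for density, for the further lists and for the receptors and ligands apart, and stretches of like length for missing numbers, were added after the data were seen.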

Additional observations from a re-analysis of the deposited data

How the results depend on the processing

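The count of genes with a start-site window was 7 of 10 at 500 bp, 1 kb and 2 kb, with the outermost start only and after overlapping windows were merged, and 5 when only calls with 2 or more kept windows were used, a restriction under which 21.6% of all genes kept one. That restriction left 34 of the 60 windows, and dropped the single start-site windows of Erbb2 and Hbegf. Merging overlapping windows left 12 regions of the 19 start-site windows and 43 of the 60, so neighbouring windows are not separate events. Counts over the family were 41 with windows that overlap the gene itself, 51 within 10 kb, 78 within 50 kb and 45 by nearest start site. For single genes, 32 of 50 alternative counts were equal or stayed within 1.5 times, among them counts of Areg that were 0 in both settings. Egfr fell to 7 and Erbb2 to 5 by nearest start site, and Areg had 1 window within 50 kb. In the central 200 bp of the windows 8 of 15 motifs were more frequent around the members than in all windows, against 7 in whole windows. No paired analysis was possible because the deposited list has no values per well and no test was made. The list holds no heights, so a window just inside the limit of 50000 and a strong one cannot be told apart.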
